A study of Mus musculus with 6 samples.

Results

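Expression of 10 genes of the TGF-beta, activin and myostatin pathway was examined in cultured mouse muscle stem cells labeled as control or Med23 knockout. The genes were chosen by name: the ligand genes Tgfb1, Tgfb2, Tgfb3, Mstn and Inhba, the ligand-binding inhibitor gene Fst, the receptor genes Tgfbr1, Tgfbr2 and Tgfbr3, and the intracellular inhibitor gene Smad7. Each had 1 row among the 32973 genes of the deposited table. The control libraries (Ctrl, 3 replicates) came from Med23flox/flox cells and the knockout libraries (Med23KO, 3 replicates) from Med23flox/flox::Pax7CreERT2 cells, so both groups carry the floxed alleles and the knockout group alone carries the Cre recombinase, expressed from Pax7. The sorted primary cells were kept for 3 days on collagen in a serum and bFGF medium. The labels list no treatment and no age, and do not tie libraries to separate animals or cultures, so the p-values cover the spread of these libraries alone, which may be technical. Med23 encodes a subunit of Mediator, which links transcription factors to RNA polymerase II, and an effect of Cre cannot be told apart from one of Med23 loss.

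TGF-beta ligands, activins and myostatin are secreted dimers that bring together a type II and a type I receptor kinase at the cell surface. The type I receptor phosphorylates the transcription factors SMAD2 and SMAD3, which join SMAD4 and enter the nucleus. TGF-beta is stored outside the cell in a latent complex and must be released to signal, whereas follistatin binds activin and myostatin and keeps them from their receptors. In muscle, myostatin is known as a negative regulator of mass and TGF-beta as an inhibitor of myoblast differentiation and fusion.

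The promoter sequences of the ligand genes Tgfb1, Tgfb2 and Mstn and of the receptor gene Tgfbr2 are shown because their values did not overlap between the groups. RefSeq (GRCm38.p6, the mm10 build) gave promoter entries for 6 of the 10 genes, and Fst, whose values also did not overlap, had none. Each line holds the 250 bases before the annotated start, 5′ to 3′ on the strand of the gene. Capitals mark a TATA box (TATAAA), a GC box (GGGCGG), the SMAD-binding element CAGAC or an AP-1 site (TGACTCA), on either strand.
Tgfb1 (chr7:25686752-25687001, plus strand): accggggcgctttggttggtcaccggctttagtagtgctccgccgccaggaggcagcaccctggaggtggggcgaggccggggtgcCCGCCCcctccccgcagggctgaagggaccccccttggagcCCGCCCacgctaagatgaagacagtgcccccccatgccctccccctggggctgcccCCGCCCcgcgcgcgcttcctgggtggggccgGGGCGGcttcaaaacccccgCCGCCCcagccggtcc
Tgfb2 (chr1:186705990-186706239, minus strand): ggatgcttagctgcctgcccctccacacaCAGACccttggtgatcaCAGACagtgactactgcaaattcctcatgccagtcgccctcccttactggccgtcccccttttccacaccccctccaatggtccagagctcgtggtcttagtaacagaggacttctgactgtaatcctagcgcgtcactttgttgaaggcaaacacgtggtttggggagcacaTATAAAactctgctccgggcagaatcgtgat
Mstn (chr1:53061390-53061639, plus strand): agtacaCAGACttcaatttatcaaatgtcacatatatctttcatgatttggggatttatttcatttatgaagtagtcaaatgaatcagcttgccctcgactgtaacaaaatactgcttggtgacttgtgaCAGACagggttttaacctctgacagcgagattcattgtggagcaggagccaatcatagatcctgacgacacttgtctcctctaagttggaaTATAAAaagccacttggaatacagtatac
Tgfbr2 (chr9:116175364-116175613, minus strand): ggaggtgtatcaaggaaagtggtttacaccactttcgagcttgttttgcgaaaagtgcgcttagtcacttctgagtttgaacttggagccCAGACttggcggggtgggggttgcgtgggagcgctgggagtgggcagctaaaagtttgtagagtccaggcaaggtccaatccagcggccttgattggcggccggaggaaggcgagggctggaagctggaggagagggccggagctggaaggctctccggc

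These windows differ in their letters. Tgfb1 held 5 GC boxes, no TATA box and no CAGAC, with a GC content of 75.2%. Tgfb2 and Mstn each held 1 TATA box, beginning 31 and 29 bases before the start, 2 CAGAC matches and no GC box, at 53.6% and 38.4% GC. Tgfbr2 held 1 CAGAC match alone. The other genes with an entry, Inhba and Tgfbr1, had overlapping groups. Inhba held 1 TATA box, beginning 91 bases before the start, and no GC box. For Tgfbr1, 1 window held 2 GC boxes and no TATA box, at 74.8% GC, and another held 1 CAGAC match alone. Neither the TATA box nor the GC box was therefore particular to genes whose values did not overlap. Among 32851 RefSeq promoter windows of this length, 12.4% held TATAAA, 32.7% GGGCGG, 42.2% CAGAC and 4.46% TGACTCA. A match is a description of the letters and no evidence of binding.

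Levels are in FPKM, fragments per unit of transcript length and of library size, which allows genes to be compared with each other. Read numbers are unknown. The sum of FPKM per library was 697886 to 746973 in the Ctrl and 599738 to 675095 in the Med23KO libraries. Med23KO replicate 3 had the lowest sum and was not closest to its own group: over the log2 values of the 12336 genes tested, Pearson's r was 0.979 with Ctrl replicate 3, against 0.965 and 0.978 with Med23KO replicates 1 and 2. The targeted gene Med23 was at 10.4, 11.7 and 10.2 FPKM in Ctrl replicates 1, 2 and 3. In Med23KO replicates 1, 2 and 3 it was at 5.10, 5.86 and 4.23 FPKM. The knockout mean was thus still 47.1% of the control mean, and the share of cells with a recombined locus was not tested. Fold changes below are differences of mean log2(FPKM + 1), a scale that understates the change of low genes, and were tested with limma, with p-values adjusted by Benjamini-Hochberg over the 12336 genes that averaged 1 FPKM or more. Of these, 359 passed the threshold of 0.05, which is 2.91% of the genes tested, and 51.3% of the calls were higher in the knockout. With libraries scaled to equal medians 63.9% of the calls were higher, and with libraries set to a common FPKM sum without the abundant RNA gene Rmrp 75.8%.

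Of the 10 pathway genes, 9 were tested and 0 passed the adjusted test, against 2.91% of all tested genes. Before adjustment 4 of the 9 had limma p-values under 0.05 (Fst, Tgfbr2, Tgfb2 and Tgfb1), as did 19.7% of all tested genes. In the same 4 genes the knockout values did not overlap the control values, 3 higher and 1 lower, as in 24.7% of all tested genes, and the same held for Mstn, which was too low to be tested. In the authors' deposited table, 6 of the 10 genes had a Cuffdiff q-value under 0.05 (Tgfb1, Tgfb2, Tgfbr2, Tgfbr3, Mstn and Fst), against 15.7% of the 13123 genes it tested. Without Med23KO replicate 3 the limma test called 3 of the 9 (Tgfb2, Fst and Tgfbr2), against 1154 of all 12349 genes tested without it. The median log2 fold change of the 9 tested genes was 0.33, and that of all tested genes was -0.03.

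**Figure D1:**
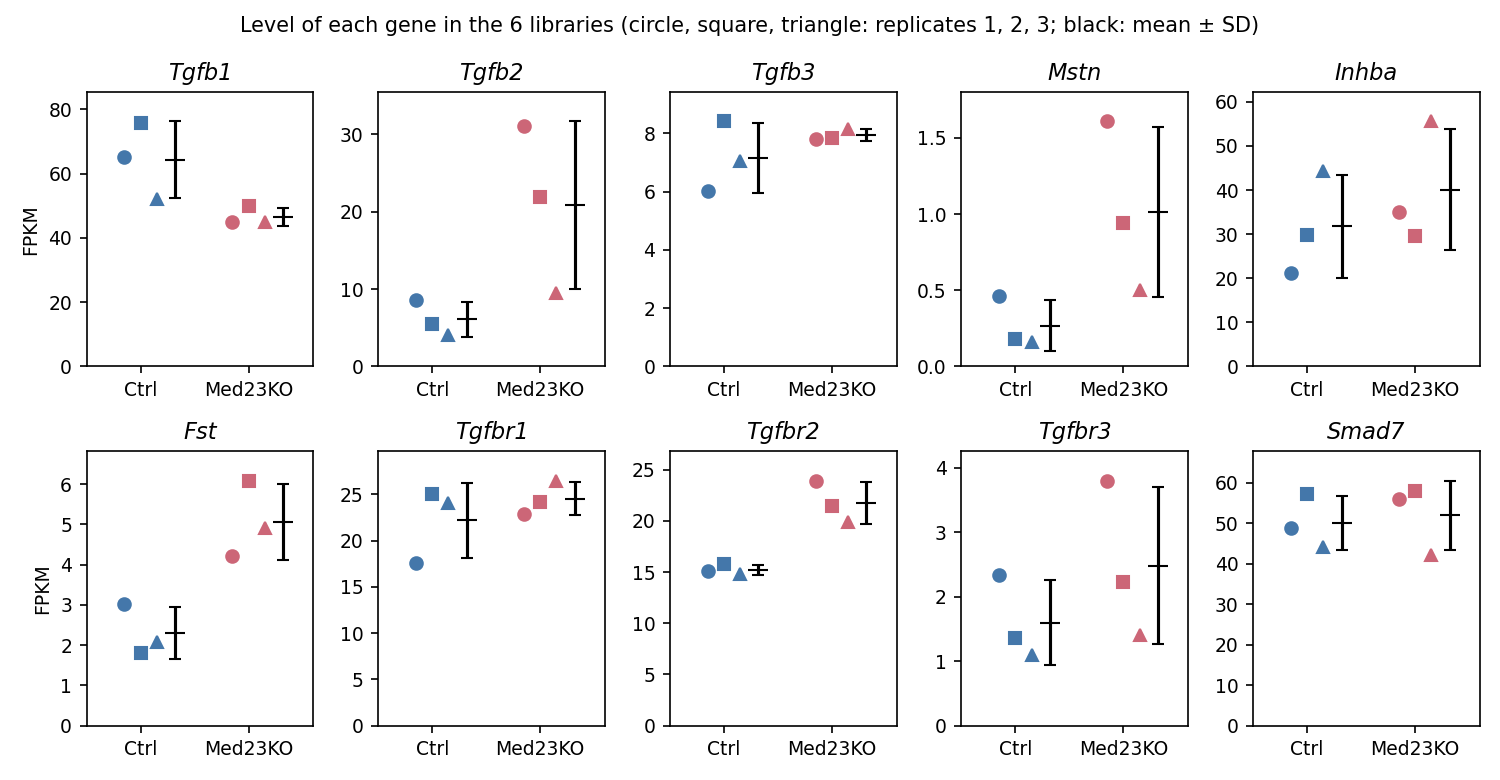
FPKM (vertical axes, starting at 0, each panel with its own scale) of the 10 genes in the 3 Ctrl and 3 Med23KO libraries, with the mean and SD of each group. The knockout points lie above all control points for Tgfb2, Mstn, Fst and Tgfbr2 and below them for Tgfb1, and the groups overlap in the other 5 panels.

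Among the TGF-beta ligand genes, Tgfb1 was the most abundant in every library. Its protein is the isoform most often studied in muscle fibrosis. Tgfb1 (mm10 chromosome 7, positions 25687002 to 25705077, plus strand) stood at 65.2, 75.8 and 52.1 FPKM in Ctrl replicates 1, 2 and 3, and 45.1, 49.8 and 44.9 FPKM in Med23KO replicates 1, 2 and 3. All knockout libraries were below all control libraries, and the controls were the more spread group. Means were 64.4 ± 11.9 FPKM for Ctrl against 46.6 ± 2.79 FPKM for Med23KO (SD, n = 3), so the knockout mean was 72.4% of the control mean. The log2 fold change came to -0.44 (SE 0.142, 95% interval -0.78 to -0.11) and did not pass (limma adjusted p = 0.144). The adjusted p stayed above 0.05 in all 6 fits without 1 library (0.092 to 0.393), but it was 0.0307 with library weights. Scaling the libraries made the fall smaller. The log2 fold change was -0.35 with a common FPKM sum without Rmrp (limma adjusted p = 0.194). It was -0.38 with quantile-normalized values (limma adjusted p = 0.171).

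Tgfb2 had the largest log2 fold change of the 9 tested genes. It encodes an isoform whose known developmental roles differ from those of Tgfb1. Tgfb2 (mm10 chromosome 1, positions 186622792 to 186705989, minus strand) stood at 8.61, 5.49 and 4.11 FPKM in Ctrl replicates 1, 2 and 3. The level was 31.1, 22.0 and 9.54 FPKM in Med23KO replicates 1, 2 and 3. The groups did not overlap, but the lowest knockout library, replicate 3, lay close to the highest control library, replicate 1. Means were 6.07 ± 2.31 FPKM for Ctrl against 20.9 ± 10.8 FPKM for Med23KO (SD, n = 3), a ratio of 3.44. The log2 fold change was 1.54 (SE 0.409, 95% interval 0.58 to 2.49), with limma adjusted p = 0.0937. Without Med23KO replicate 3 it was 1.99 and passed (limma adjusted p = 0.00658), and it also passed with a common FPKM sum without Rmrp (adjusted p = 0.0492) and with library weights (adjusted p = 0.00992). With any other library left out the adjusted p was 0.124 to 0.318, and the log2 fold change was lowest, at 1.19, without Med23KO replicate 1. An antisense gene, Gm29491, and a small nucleolar RNA gene, Gm26169, overlap Tgfb2 on the other strand, and whether reads were counted by strand is not given in the sources used here.

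Tgfb3, the ligand gene with the most even values, had 6.01, 8.41 and 7.05 FPKM in Ctrl replicates 1, 2 and 3 and 7.79, 7.85 and 8.16 FPKM in Med23KO replicates 1, 2 and 3. All knockout values lay within the control range. Its log2 fold change was 0.14 (SE 0.132, 95% interval -0.17 to 0.45; limma adjusted p = 0.62), an interval that leaves room for small changes either way. The opposite strand at Tgfb3 carries part of Ttll5, a protein-coding gene, so the same limit holds.

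Set side by side, the shares of Tgfb1 and Tgfb2 in these ligand genes did not overlap between the groups, while their total did. The sum of Tgfb1, Tgfb2 and Tgfb3 was 79.8, 89.8 and 63.3 FPKM in Ctrl replicates 1, 2 and 3, and 84.0, 79.7 and 62.6 FPKM in Med23KO replicates 1, 2 and 3. Tgfb2 made up 10.8%, 6.12% and 6.49% of that sum in the controls and 37.0%, 27.6% and 15.2% in the knockouts. Tgfb1 made up 81.7%, 84.5% and 82.4% in the controls and 53.7%, 62.6% and 71.7% in the knockouts. Every knockout library therefore had a larger Tgfb2 share and a smaller Tgfb1 share than every control library. A two-sided exact permutation test over the libraries gave p = 0.1 for each of these shares, the lowest possible with 3 against 3, and p = 0.5 for the Tgfb3 share and p = 0.7 for the sum. The shares were formed after the values of the genes had been seen. Tgfb1 and Tgfb2 already differed in opposite directions without overlap, and Tgfb3 was a small part of the sum. The shares of Tgfb1 and Tgfb2 therefore largely restate those values and each other, and the permutation test of them adds no support.

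**Figure D2:**
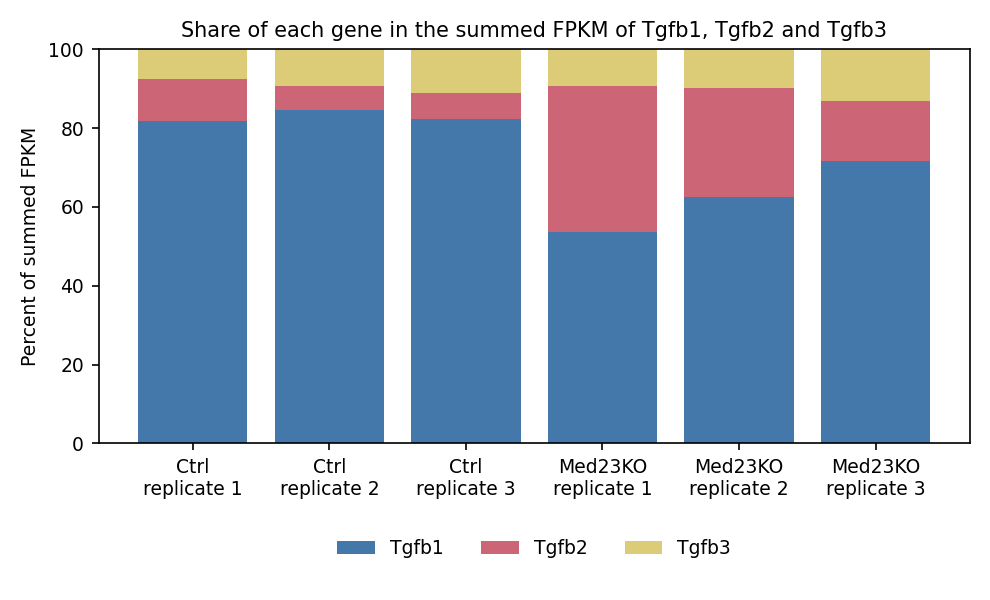
Stacked bars give the percent of the summed FPKM of Tgfb1, Tgfb2 and Tgfb3 that each gene made up in each of the 6 libraries. The Tgfb2 share is at most 10.8% in the controls and at least 15.2% in the knockouts.

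Mstn, the myostatin gene, had the lowest level of the 10 genes in both groups. Mstn (mm10 chromosome 1, positions 53061640 to 53068079, plus strand) stood at 0.461, 0.179 and 0.163 FPKM in Ctrl replicates 1, 2 and 3, and 1.61, 0.938 and 0.5005 FPKM in Med23KO replicates 1, 2 and 3. Every knockout library was above every control library, although Med23KO replicate 3 lay just above Ctrl replicate 1. Means were 0.268 ± 0.168 FPKM for Ctrl against 1.02 ± 0.558 FPKM for Med23KO (SD, n = 3). Its mean over the 6 libraries, 0.642 FPKM, was under the filter of 1 FPKM, so it entered no adjusted test. Without a filter its limma adjusted p was 0.222, a two-sided exact permutation test had p = 0.1, the lowest possible with 3 against 3 libraries, and the q-value in the authors' deposited table was 0.0079. The log2 fold change was 0.64 with 1 FPKM added and 1.57 with 0.1 FPKM added.

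Inhba encodes the beta A chain, which forms activin A as a dimer. It had 21.3, 29.8 and 44.4 FPKM in Ctrl replicates 1, 2 and 3, and 35.1, 29.5 and 55.6 FPKM in Med23KO replicates 1, 2 and 3. The groups overlapped widely, and replicate 3 was the highest library of each. The log2 fold change was 0.33 (SE 0.302, 95% interval -0.37 to 1.04; limma adjusted p = 0.611), an interval that spans both directions. The antisense gene Gm48444 and the pseudogene B230303A05Rik overlap Inhba on the other strand, and reads of these genes may not be told apart from those of Inhba if strand was not used.

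Fst, the follistatin gene, came nearest to the threshold. Fst (mm10 chromosome 13, positions 114452290 to 114458951, minus strand) stood at 3.03, 1.81 and 2.08 FPKM in Ctrl replicates 1, 2 and 3, and 4.21, 6.08 and 4.90 FPKM in Med23KO replicates 1, 2 and 3. Every knockout library was above every control library. Means were 2.31 ± 0.641 FPKM for Ctrl against 5.06 ± 0.947 FPKM for Med23KO (SD, n = 3), a ratio of 2.19. The log2 fold change was 0.88 (SE 0.184, 95% interval 0.45 to 1.31; limma adjusted p = 0.0522). It passed with quantile-normalized values (adjusted p = 0.0482), with equal medians (adjusted p = 0.0387), with a common FPKM sum without Rmrp (adjusted p = 0.0289), library weights (adjusted p = 0.0122) and without Med23KO replicate 3 (adjusted p = 0.0385), and the adjusted p reached 0.224 without Med23KO replicate 2. Relative to its ligand gene Inhba, the Fst level was 14.2%, 6.07% and 4.69% in the controls and 12.0%, 20.6% and 8.81% in the knockouts, which overlap. An antisense gene, Gm47040, overlaps Fst on the other strand, with the same limit.

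Among the receptor genes, Tgfbr2 differed with the least spread. It encodes the type II receptor, the subunit that binds TGF-beta first. Tgfbr2 (mm10 chromosome 9, positions 116084293 to 116175360, minus strand) stood at 15.1, 15.7 and 14.8 FPKM in Ctrl replicates 1, 2 and 3, and 23.9, 21.4 and 19.9 FPKM in Med23KO replicates 1, 2 and 3. The 3 control libraries were nearly alike and all knockout libraries lay above them. Means were 15.2 ± 0.493 FPKM for Ctrl against 21.7 ± 2.05 FPKM for Med23KO (SD, n = 3), a ratio of 1.43. The log2 fold change was 0.49 (SE 0.104, 95% interval 0.24 to 0.73; limma adjusted p = 0.0556). It passed when only genes averaging 5 FPKM or more were tested (adjusted p = 0.0473), with quantile-normalized values (adjusted p = 0.0311), with equal medians (adjusted p = 0.0285), with a common FPKM sum without Rmrp (adjusted p = 0.0206), library weights (adjusted p = 0.0139) and without Med23KO replicate 3 (adjusted p = 0.0233). With any other library left out the adjusted p was above 0.05, up to 0.226.

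Tgfbr1, the type I receptor gene that carries the signal to the SMADs, had 17.6, 25.0 and 24.1 FPKM in Ctrl replicates 1, 2 and 3, and 22.9, 24.2 and 26.5 FPKM in Med23KO replicates 1, 2 and 3. The groups overlapped, with 1 control library, replicate 1, below the rest. Its log2 fold change was 0.15 (SE 0.147, 95% interval -0.19 to 0.49; limma adjusted p = 0.639). Tgfbr3, which encodes the co-receptor betaglycan that presents TGF-beta2 to the type II receptor, was low, at 2.34, 1.35 and 1.09 FPKM in the controls and 3.80, 2.23 and 1.41 FPKM in the knockouts. Ctrl replicate 1 lay above Med23KO replicates 2 and 3, and within each group replicate 1 was the highest. Its log2 fold change was 0.39 (SE 0.285, 95% interval -0.27 to 1.06, limma adjusted p = 0.516). The genes Gm42900, Gm43422 and Gm43423 overlap Tgfbr3 on its own strand, and the pseudogene Gm8145 on the other. Their reads may not be told apart from those of Tgfbr3.

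Smad7 is a target gene of the pathway whose protein blocks the type I receptor in a negative feedback loop. It had 48.7, 57.2 and 44.2 FPKM in Ctrl replicates 1, 2 and 3, and 55.9, 57.8 and 42.2 FPKM in Med23KO replicates 1, 2 and 3. The groups overlapped, and the log2 fold change was 0.05 (SE 0.151, 95% interval -0.31 to 0.40; limma adjusted p = 0.908). Its sign turned with library weights (-0.05) and without Ctrl replicate 3, Med23KO replicate 1 or Med23KO replicate 2 (-0.04 to -0.01).

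By level, Tgfb1 and Smad7 came first in both groups, at 64.4 ± 11.9 and 50.0 ± 6.59 FPKM in controls (SD, n = 3), with overlapping ranges. Inhba, Tgfbr1 and Tgfbr2 followed at 31.8, 22.2 and 15.2 FPKM, where Inhba overlapped Tgfbr1 and Tgfbr1 lay above Tgfbr2. Tgfb3 and Tgfb2 overlapped in the controls, at 7.16 and 6.07 FPKM, and changed places in the knockouts, where all Tgfb2 values were above all Tgfb3 values. Fst, Tgfbr3 and Mstn were the lowest, and in the knockouts Fst lay above Tgfbr3 in every library.

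**Figure D3:**
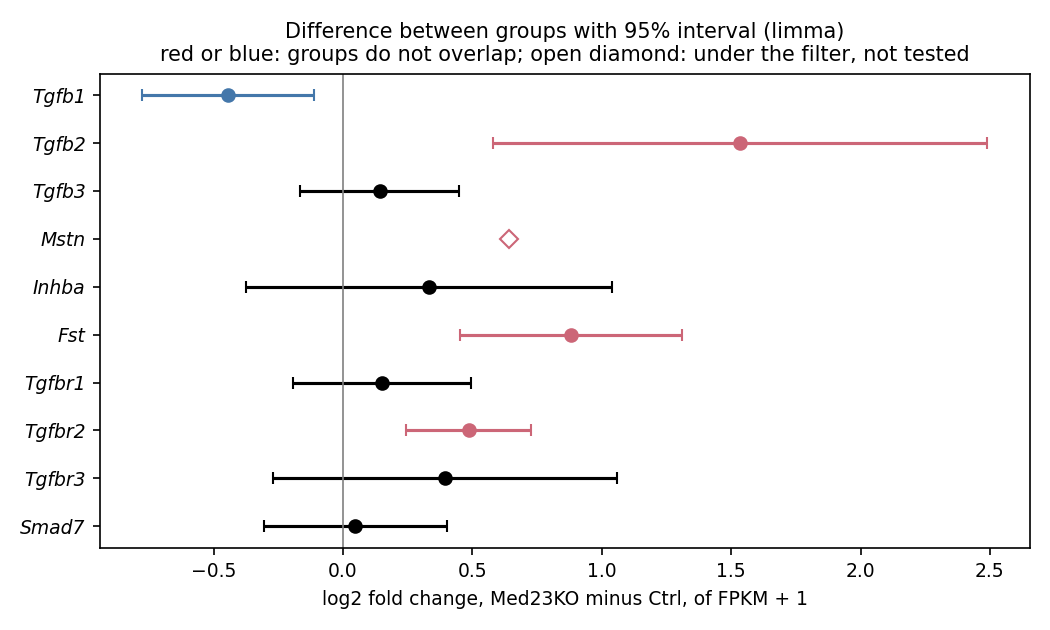
Log2 fold change of FPKM + 1, Med23KO minus Ctrl, for each gene, with the 95% interval from limma as the bar. The intervals of Tgfb1, Tgfb2, Fst and Tgfbr2 do not reach 0 before adjustment, those of the other 5 tested genes do, and Mstn, under the filter, is an open diamond without interval.

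The other genes of the pathway were taken from 6 lists by role. Of 81 genes with a row, 64 were tested, 1 rose (Acta2) and 3 fell (Itgb8, Ltbp1 and Junb), against 1.49% higher and 1.42% lower among all tested genes. The median log2 fold change over the 64 was 0.04. The authors' deposited table called 21 of 67 by its q-values, against 15.7% of all genes it tested.

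Both falls outside the response genes were in genes that handle latent TGF-beta. Itgb8 encodes the beta 8 integrin subunit, which pairs with alpha v and activates latent TGF-beta. It fell from 6.15, 4.88 and 5.60 FPKM in Ctrl replicates 1, 2 and 3 to 2.30, 1.75 and 1.83 FPKM in Med23KO replicates 1, 2 and 3 (log2 fold change -1.14 with SE 0.139; adjusted p in limma = 0.0137). Ltbp1, whose product holds the latent complex in the matrix, fell from 71.8, 52.1 and 54.7 FPKM to 26.1, 30.7 and 27.9 FPKM (log2 fold change -1.04 with SE 0.140; adjusted p in limma = 0.0188). The groups of both genes lay far apart, with every knockout value well below the lowest control value. Both calls were lost without Ctrl replicate 2 or 3 or Med23KO replicate 2, and that of Ltbp1 also without Med23KO replicate 1, with adjusted p-values up to 0.0984 for Itgb8 and 0.0993 for Ltbp1. In this list of latency, activation and binding genes, 2 of 14 tested fell, against 1.42% of all tested genes, and 0 rose, against 1.49%, with a median of 0.09. The next genes by adjusted p were Bgn, Ltbp2, Fbn1 and Lrrc32, with log2 fold changes of 0.42, -0.49, 0.27 and 0.26 and limma adjusted p-values from 0.215 to 0.343.

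Among the other ligand genes, 0 of 3 tested passed, against 2.91% of all tested genes. Inhbb, which encodes the beta B chain of activin B, had 23.0, 16.1 and 11.9 FPKM in Ctrl replicates 1, 2 and 3, and 8.68, 6.58 and 3.81 FPKM in Med23KO replicates 1, 2 and 3. All its knockout values were below its control values, in contrast to Inhba, whose groups overlapped, and its log2 fold change of -1.30 (SE 0.301) had limma adjusted p = 0.0676. The inhibin alpha gene Inha and Gdf11, which encodes a close relative of myostatin, had log2 fold changes of -0.06 and 0.05. Nodal, Inhbc and Inhbe were listed at 0 in all libraries.

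Of the other receptor genes, 0 of 6 tested passed, against 2.91% of all tested genes. Acvr2a, a type II receptor gene for activin and myostatin, had 13.2, 14.3 and 14.7 FPKM in the controls and 18.6, 20.4 and 18.2 FPKM in the knockouts. The groups did not overlap, and the log2 fold change of 0.41 (SE 0.0992) had limma adjusted p = 0.0724. Acvr2b, its paralog, lay the other way, at 2.24 ± 0.473 FPKM for Ctrl against 1.53 ± 0.102 FPKM for Med23KO (SD, n = 3; log2 fold change -0.35, limma adjusted p = 0.261). The endoglin gene Eng and the activin type I receptor gene Acvr1b had log2 fold changes of 0.47 and 0.16.

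Of the genes of the SMADs and their partners, 0 of 7 tested passed, against 2.91% of all tested genes. Smad3 had 7.18, 4.82 and 4.85 FPKM in Ctrl replicates 1, 2 and 3, and 14.3, 12.9 and 6.33 FPKM in Med23KO replicates 1, 2 and 3. Med23KO replicate 3 stood among the control values, the log2 fold change was 0.83 (limma adjusted p = 0.17), and it passed without that library (adjusted p = 0.00953). The shared partner gene Smad4, the ubiquitin ligase gene Trim33 and the coactivator gene Crebbp had log2 fold changes between -0.10 and -0.09.

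Of the intracellular inhibitors, 0 of 12 tested passed, against 2.91% of all tested genes, with a median of -0.04. Nedd4l, a ubiquitin ligase gene that limits SMAD2 and SMAD3, and the inhibitory SMAD gene Smad6 had log2 fold changes of 1.26 and 0.79, while Pmepa1, a TGF-beta target gene that restrains SMAD2 and SMAD3, had -0.95 and the corepressor gene Tgif1 -0.21. In Nedd4l, Smad6 and Pmepa1, Med23KO replicate 3 lay within the control range. Their limma adjusted p-values were 0.161, 0.235 and 0.18, and without that library 0.00586, 0.0217 and 0.0227.

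Common TGF-beta response genes did not move in one direction. Of 22 tested, Acta2 rose and Junb fell (2.91% of all tested genes passed in either direction), 14 lay above 0 and 8 below, and the median was 0.12. Acta2, the smooth muscle actin gene, rose from 157, 148 and 130.2 FPKM to 265, 289 and 247 FPKM (log2 fold change 0.88 with SE 0.106; adjusted p in limma = 0.0137), and reads of near-identical actin genes may be split between them. Junb, an AP-1 gene, fell from 62.9, 73.8 and 56.2 FPKM to 40.9, 41.5 and 38.7 FPKM (log2 fold change -0.65 with SE 0.116; adjusted p in limma = 0.0342). The Acta2 call was lost without Ctrl replicate 2 or Med23KO replicate 1 or 2, with adjusted p-values up to 0.0997. The Junb call was lost without any library other than Med23KO replicate 3, up to 0.162. Klf10, Tsc22d1, Snai1 and Angptl4, all early TGF-beta targets in some cell types, are named for having the next smallest adjusted p-values. Their log2 fold changes were -0.56, -0.86, -0.81 and -0.49, with limma adjusted p-values from 0.0561 to 0.088. In these genes and Junb, 5 of the 22, all knockout values were below all control values. In 3 genes (Acta2, Snai2 and Timp3) they were above. The groups did not overlap, in either direction, in 24.7% of all tested genes. Snai2 and Timp3, named to show the other direction, had log2 fold changes of 0.52 and 0.28 (limma adjusted p = 0.125 and 0.354). The widely used readout Ccn2 (listed as Ctgf), named here after its values were seen, had a log2 fold change of 0.39 (limma adjusted p = 0.261).

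**Figure D4:**
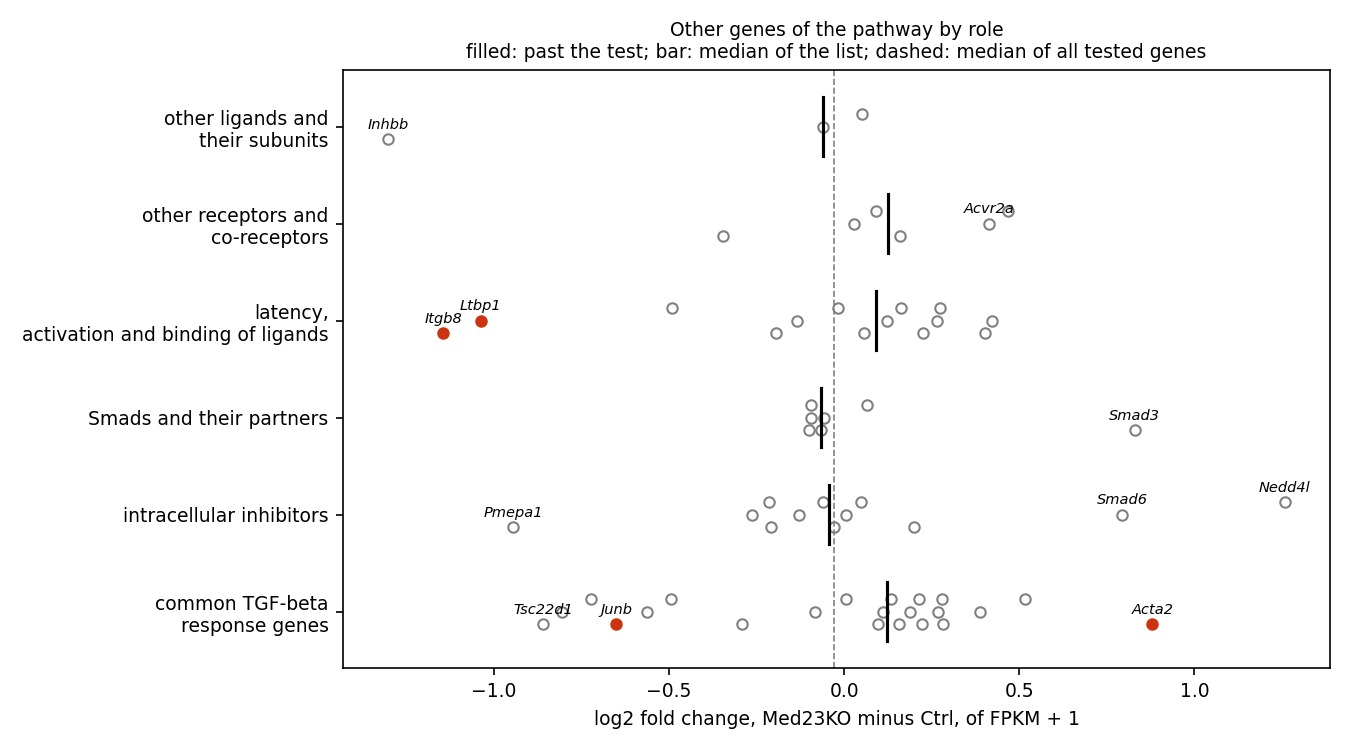
Log2 fold change of FPKM + 1, Med23KO minus Ctrl, of the 64 other tested pathway genes, 1 row of points per role, with filled points past the adjusted test. Itgb8 and Ltbp1 lie at -1.14 and -1.04, Junb at -0.65 and Acta2 at 0.88, and the bars, the medians of the lists, lie between -0.07 and 0.12.

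Summed markers of 2 other cell states were higher in the knockouts, although few of the single markers passed. Of the myogenic differentiation markers 1 of 6 tested rose, against 1.49% of all tested genes. That gene was Tnnc1 (log2 fold change 1.13, limma adjusted p = 0.0193). Its call was lost without Ctrl replicate 1 or 2 or Med23KO replicate 2, where the adjusted p reached 0.127. Of the fibro-adipogenic progenitor and fibroblast markers 0 of 8 tested passed in limma, against 2.91% of all tested genes. Before adjustment 5 of these 6 and 4 of these 8 markers had limma p-values under 0.05, against 19.7% of all tested genes. The summed FPKM of 8 myogenic differentiation markers was 77.4 to 122 in controls and 202 to 222 in knockouts, with 8 of 8 higher on average. Of these, Ckm was under 1 FPKM in all libraries and its groups overlapped. Myog alone gave 14.6 to 43.8 FPKM of that sum in controls and 76.0 to 89.4 FPKM in knockouts (log2 fold change 1.56, limma adjusted p = 0.0609). The summed FPKM of 10 markers of fibro-adipogenic progenitors and fibroblasts was 175 to 241.8 in controls and 242.1 to 380 in knockouts, with 8 of 10 higher on average and Dpt and Pi16 under 1 FPKM in all libraries. The collagen gene Col3a1 alone gave 138 to 182 FPKM of that sum in controls and 183 to 286 FPKM in knockouts, and the sums of Ctrl replicate 1 and Med23KO replicate 3 were nearly equal. The part of these markers in the values of Tgfb2, Mstn, Fst, Tgfbr2, Tgfb1, Acta2, Itgb8 and Ltbp1 was not tested, and in bulk libraries fewer cells of a type and less RNA per cell cannot be told apart. The summed FPKM of 8 muscle stem cell markers overlapped, at 1264 to 1959 in controls and 1091 to 1867 in knockouts. Myod1 alone gave 702 to 1170 FPKM of that sum in controls and 551 to 964 FPKM in knockouts. Pax7 was at 46.2 ± 11.6 and 48.6 ± 14.4 FPKM (SD, n = 3). Of these 8, 0 passed in limma, against 2.91% of all tested genes, and 5 were higher on average. The groups of Itga7 alone did not overlap, with the knockouts lower (limma adjusted p = 0.0515), against 24.7% of all tested genes. Cdh15 had a log2 fold change of 0.76 (limma adjusted p = 0.168). Summed markers of endothelial cells, leukocytes, smooth muscle with pericytes, and Schwann cells were at most 16.0 FPKM in any library and overlapped between the groups. Ptprc, Adgre1, Csf1r, Itgam, Cd3e, Kdr, Myh11 and Sox10 were under 1 FPKM in all 6 libraries, and no marker was at 0 in all of them.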

How the data were processed

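RNA was measured in 3 control and 3 knockout libraries. Per the labels' protocols, poly(A) RNA was selected and strand-specific libraries were made. The authors' tools were cutadapt, FastQC, STAR and Cuffdiff on mm10, per the submitters' processing notes, with versions, annotation and strand setting not stated there. The deposited values are FPKM per library as Cuffdiff scales them, with the authors' Cuffdiff q-values, per the file headers. The depth is unknown.

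Rows were matched by symbol, and 12316 of 12368 rows listed by Ensembl identifier alone matched GENCODE vM21, from which positions were taken. Values were transformed to log2(FPKM + 1), filtered at a mean of 1 FPKM and fitted in R 4.3.3 by limma 3.58.1, mean-variance trend included, two-sided, with Benjamini-Hochberg adjustment. The script was tested on simulated data. The 10 genes and all lists were chosen with earlier results of these data known. Named beside the 10 genes are Med23, Pax7, every called gene of the pathway lists and up to 4 others per list with the smallest adjusted p, and other genes where stated or where a marker or a library is described. A rule for naming the genes most like a called one named none, since 0 of the 10 passed. Alternatives covered the pseudocount, filter, scaling, variance model, library weights, a replicate block, each library left out and the authors' q-values.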

Additional observations from a re-analysis of the deposited data

How the results depend on the processing

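Precision is known only from 3 libraries a group, since FPKM carry no depth. Across all genes 359 were called. Of the 8822 genes averaging 5 FPKM or more 310 were called, and with quantile normalization 499 of 12336. The count was 157 without a filter on low values, 568 with median scaling, 652 with a common FPKM sum without Rmrp, 1700 with library weights (whose estimate did not fully converge), 2054 by the authors' deposited q-values, and 13 to 1154 with 1 library left out, the highest without Med23KO replicate 3 and the lowest without Med23KO replicate 2. Of the 9 tested pathway genes 0 were called. The count was 1 of 7 when only genes averaging 5 FPKM or more were tested, 2 with quantile normalization and 2 with median scaling. It was 3 with the common FPKM sum and 4 with library weights. By the authors' deposited q-values it was 6 of 10, and with 1 library left out 0 to 3. Of the 64 other pathway genes 4 were called. The count was 8 with median scaling and 8 with the common FPKM sum, 14 with library weights, 21 of 67 by the authors' deposited q-values, and 0 to 14 with 1 library left out. The cause of these shifts was not tested.

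The labels do not say whether libraries with the same replicate number belong together. Deviations of same-numbered libraries correlated at 0.437, -0.0158 and 0.563 across genes for replicates 1, 2 and 3. Ctrl replicate 3 with Med23KO replicate 1 gave -0.424, and Ctrl replicate 1 with Med23KO replicate 3 gave -0.575. Ctrl replicate 2 did not correlate best with its own number. Whether the numbers stand for a shared preparation was not tested. With a replicate block 2757 genes were called, with 4 of the 9 pathway genes (Fst, Tgfb2, Tgfbr2 and Tgfb1) and 18 of the 64 others.

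Directions turned in genes near 0. With library weights the log2 fold change was -0.031 for Tgfb3, -0.0196 for Tgfbr1 and -0.052 for Smad7. With 1 library left out it ran from -0.0031 (without Ctrl replicate 1) to 0.24 for Tgfbr1 and from -0.035 to 0.19 for Smad7, which was below 0 without Ctrl replicate 3, Med23KO replicate 1 or Med23KO replicate 2. Tgfb1, Tgfb2, Tgfbr2, Tgfbr3, Fst, Inhba and Mstn kept their direction in every alternative run in which they had a value.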

Other observations

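Within the groups, several pathway genes differed between libraries by as much as the groups differed. Tgfb2 and Tgfbr3 were highest in replicate 1 and lowest in replicate 3 of both groups, as was Mstn, which was under the filter. Of the other tested pathway genes, 9 of 64 had this pattern (Angptl4, Cdkn2b, Crebbp, Ep300, Inhbb, Nedd4l, Smad6, Snai2 and Vim) and 7 the opposite one (Fstl3, Itgav, Skil, Smad2, Thbs1, Tsc22d1 and Usp15). Over all 12336 tested genes the shares were 20.7% and 11.7%, so the pattern is common in these libraries. Skil, a SMAD corepressor and feedback target gene, had 75.6, 95.8 and 107 FPKM in Ctrl replicates 1, 2 and 3 and 81.4, 108 and 135 FPKM in the same replicates of the knockout. Pax7 had 57.7, 46.6 and 34.5 FPKM in the controls and 60.3, 53.0 and 32.4 FPKM in the knockouts. These genes were picked after their values were seen, and the cause of the pattern was not tested.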
